A study of Mus musculus with 25 samples.

Results

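When a broken chromosome end is joined to another broken end, the join can be direct, can overlap by a few shared bases (microhomology), or can hold bases that belong to neither end. Such inserted bases are a known trait of end joining: polymerases of classical end joining can add bases without a template, and polymerase theta, which anneals short microhomologies, can copy nearby DNA into the join before it closes. The joins described here are those with 10 or more inserted bases, in mouse embryonic stem cells, between a bait end cut by Cas9 and the body of a reporter cassette that lies 30 kb from the cut in ROSA26.

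Members were chosen from the reads themselves. A join was counted when its deposited position lay from 1 to 3616 of the cassette reference and when 10 or more bases lay between the end of the bait match and the start of the prey match, prey being the DNA joined to the bait. Both matches were extended exactly, up to the first mismatch. This gave 331 members among 7597 body joins, of which 5 had no called structure, and among 11867 listed junctions in all. Members were therefore 4.36% of the 7592 called body joins. Their insertion length chose them, so lengths are given as a description.

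Genomic DNA was collected 48 h after transfection and junctions were mapped by LAM-HTGTS, which amplifies DNA joined to a bait break from a primer beside it. Cells received Tus, the homing endonuclease I-SceI or a control labelled EV, with an siRNA against BLM (a helicase that dissolves recombination intermediates), BRCA1 (which promotes repair by homologous recombination), FANCM (a translocase that acts on stalled forks) or luciferase (the control). Tus is a bacterial protein that blocks replication forks when it binds Ter elements, of which the 4 kb 1xGFP cassette carries 6. All groups carry this cassette and received the Cas9 bait cut with the US30kb_ROSA26 guide. Genotypes are BRCA1del/exon11 (BRCA1del here) and BRCA1flox/exon11 (BRCA1flox), so an exon11 allele is common to both. Tus was given with each of the 4 siRNAs in both genotypes, and EV and I-SceI were given only with siFANCM in BRCA1del cells. Cells grew on MEF feeders, and the labels do not say whether a line is 1 clone or whether replicates were separate cultures.

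The 25 labelled samples fall into 10 groups of 2 or 3. Each group has 1 table for all its samples, in which read names carry a sequencing run. The 4 runs, here A to D, give 25 libraries of 1 group and 1 run each, which no label ties to a replicate number. Run C holds all 10 groups, and run D the 8 Tus groups. Apart from EV, libraries held 97 to 722 called body joins. P-values over runs reflect the scatter among libraries alone, part or all of it possibly technical, and tests or intervals on pooled joins cover counting error only.

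The bait end and the clearest inserted copies of it are shown here, because they carry the pattern that recurs across libraries. Bait bases are counted from 1 at the first base after the 5-base barcode, and the bait consensus ran for 145 bases. Sequences are read 5′ to 3′ from the primer side, capitals mark the bases that match the bait exactly, and the place of the bait on the genome was not analysed here.
Bait bases 86 to 145: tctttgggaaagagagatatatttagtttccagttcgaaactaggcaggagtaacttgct
Inverted copy of 137 to 114, BRCA1flox siBLM: ACTCCTGCCTAGTTTCGAACTGGA
Inverted copy of 135 to 117, BRCA1flox siBLM: TCCTGCCTAGTTTCGAACT
Inverted copy of 137 to 121, BRCA1flox siBRCA1: ACTCCTGCCTAGTTTCG
Inverted copy of 132 to 117, BRCA1del siBRCA1: TGCCTAGTTTCGAACT
Inverted copy of 140 to 127, I-SceI, BRCA1del siFANCM: GTTACTCCTGCCTA
Inverted copy of 137 to 126, BRCA1del siFANCM: ACTCCTGCCTAG
Inverted copy of 135 to 124, BRCA1flox siLuciferase: TCCTGCCTAGTT
Direct copy of 98 to 127, BRCA1flox siFANCM: AGAGATATATTTAGTTTCCAGTTCGAAACT
Direct copy of 104 to 129, BRCA1del siLuciferase: ATATTTAGTTTCCAGTTCGAAACTAG
The 7 inverted copies are read from the opposite strand of the last bait bases, so they overlap one another in letters.

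Most members were short. The median insertion held 18 bases (interquartile range 12 to 26), 125 members had 10 to 14 bases, and 68 had 30 or more. The longest, 147 bases, came from the I-SceI group in run A at position 3262. At the edge of the rule, 40 joins had 9 inserted bases and 43 had 8, against 27 with 10 and 37 with 11. Rightward joins, in which the prey runs away from position 1, were 18.6%, 27.5%, 7.41% and 13.5% of those with 8, 9, 10 and 11 bases. Median positions were 3079 at 9 bases and 3085 at 10.

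Long insertions were not all bases foreign to both ends. An extension that tolerates mismatches and gaps, scored at 1 per match, 1 off per mismatch and 2 off per gap base, left 10 or more unexplained bases in 157 members (47.4%). The other 174 ran on into bait or prey with mismatches: 54 on the bait side alone, 86 on the prey side alone and 34 on both sides. In those 174, the deposited position equalled the start of the exact prey match in 31.0%, against 84.7% of the 157 and 95.1% of all called body joins. Reads with an N made up 30.5% of the 174, 46.5% of the 157 and 46.3% of the other body joins. The longest member, of 147 bases, had none left, as had the single EV member, of 96 bases. Of the 331, 5 had 30 or more bases left, against the 68 with 30 or more by exact extension.

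**Figure D1:**
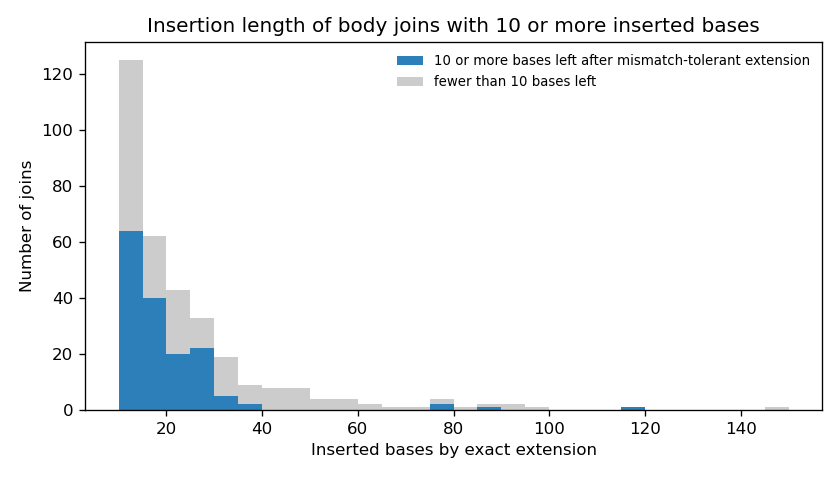
Insertion length (x axis, bases between the exact bait and prey matches) of the 331 body joins with 10 or more inserted bases (y axis, number of joins, in 5-base bins). Blue joins kept 10 or more bases after mismatch-tolerant extension (157) and grey joins did not (174), and grey prevails above 30 bases.

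The 157 joins that kept 10 or more bases are called retained insertions. Their median length was 16 bases (interquartile range 12 to 21), the longest held 67 bases, and they occurred in 23 libraries. An exact match of 12 or more bases traced 17 of them (10.8%) to the bait and 32 (20.4%) to the cassette. The other 108 (68.8%) had no such match, with a median of 14 bases and a median GC content of 48.0%. The cassette copies had a median GC content of 31.8%. Short insertions leave little room for a 12-base match, so an untraced insertion may still be a shorter copy.

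Of the 17 bait copies, 11 were inverted and 6 direct. The 11 inverted copies lay in 10 libraries of 8 groups, and all 11 were leftward joins, in which the prey runs toward position 1. Most retained insertions were leftward too, with 20.4% of all 157 rightward. In 7 of the 11 inverted copies the copied bases began past the end of the bait still attached in the read. Those 7 came from 6 libraries of 6 groups. Of them, 2 were from Tus BRCA1del, 1 from I-SceI and 4 from Tus BRCA1flox, the source of most retained insertions. The attached bait ended at base 113 to 124, and the copy came from the bases after it, its outer end at base 132 to 140 of 145. In 6 of the 7, 0 to 2 bases lay between the attached end and the copied stretch, with 0 in 3 of them, and the largest gap was 5 bases. The reads thus hold the bait up to a point and then the next bases of the bait in reverse orientation. In the longest, from Tus BRCA1flox siBLM in run C, the bait ended at base 113, and an inverted copy of bases 137 to 114 led to prey at position 3196. In a second member of that library the bait ended at 115, and bases 135 to 117 led to position 1922.

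The ends of these inverted copies shared bases with their neighbours. A shared base is one that could belong either to the copy or to the DNA beside it. All 7 copies shared 1 to 4 bases with the bait end (median 3) and 1 to 7 bases with the prey (median 2). At the bait end, 5 of 7 shared 2 or more bases. The remaining 4 inverted copies lay elsewhere: 3 came from within the attached bait, and 1 overlapped its end.

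Direct copies took another form. In 3 members the copied stretch started inside the attached bait and ran past the end of its exact match. One had bait up to base 111, then bases 98 to 127, then prey at position 1279 (Tus BRCA1flox siFANCM, run B). Another had bait up to base 113, then bases 104 to 129, then prey at position 603 (Tus BRCA1del siLuciferase, run B). Both therefore repeat part of the bait in tandem before the prey. In the third (Tus BRCA1del siLuciferase, run C, prey at 3011) the exact bait match ended at base 123. Tolerant extension carried it on by 14 read bases before the copy of bases 117 to 131, which may thus lie inside the attached bait. In 2 members the stretch lay wholly past the attached end, with 62 and 9 bases skipped, so the bait reads on after an internal gap. In the sixth, from I-SceI, bases 121 to 136 were repeated after a bait that ended at base 142.

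**Figure D2:**
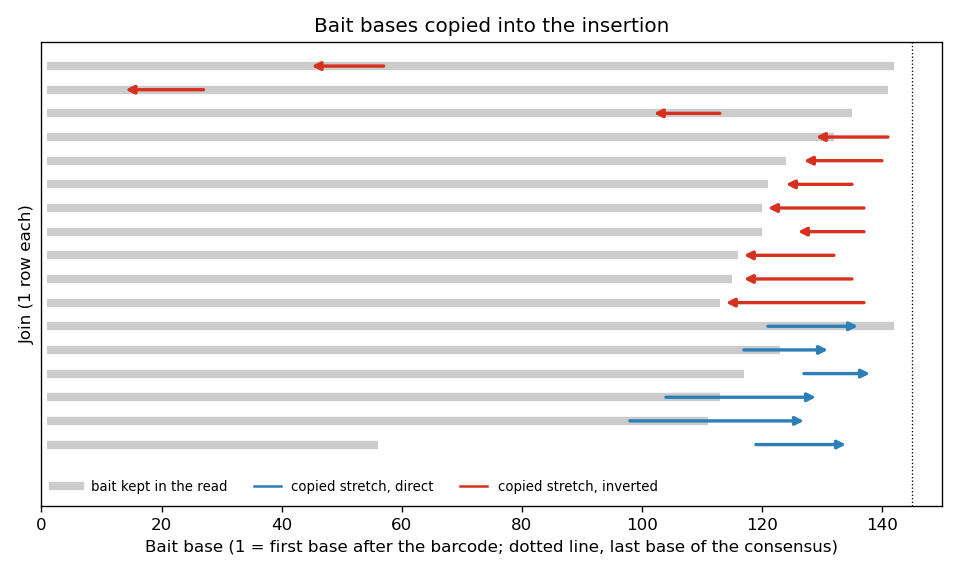
Bait bases copied into the insertion, 1 row per join, along the bait (x axis, bait base counted from the barcode). Grey bars show the bait attached by exact match, and arrows the copied stretch in reading direction. Red marks the 11 inverted and blue the 6 direct copies, and 7 red arrows lie just past the end of their grey bar.

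Cassette copies matched mainly the Ter array, where 48.4% of all retained insertions also had their prey. Of 32 cassette copies, 22 came from the stretch between the first and the last Ter element, which lie at 3048 to 3070 and 3222 to 3244 of the cassette reference. None of the 22 was in an I-SceI or EV library, but I-SceI held only 16 of the 157 retained insertions and EV held none. This absence was not tested. The array repeats itself, so 20 of the 22 match more than 1 place, and the positions given are those of 1 match. The prey of 9 lay left of the array, that of 12 inside it and that of 1 right of it. The copy read leftward in 19 of 22. Among all 32, 23 had the orientation of their prey and 9 the opposite. The longest rightward copy, 29 of 67 bases, matched the array (3073 to 3101) in Tus BRCA1flox siBLM, run C, with 32 bait bases attached. Its source starts at the deposited position 3073 itself, 2 bases after the attached bait. Since the array repeats itself, this stretch may be the prey rather than a copy. Other array copies whose source starts at or beside the deposited position share this limit.

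A recurrent form joined the bait to the end of a Ter element. In 6 members the copy was read leftward from 4 bases inside the right end of a Ter element, and in all 6 the bait ended at base 142. They came from 6 libraries of 4 groups, and each shared exactly 4 bases with the bait end, which are the last bases of that Ter element. Their deposited positions were 2722, 2794, 2982, 3063, 3070 and 3244, and 12 to 26 matching bases stood next to the bait. The 26 bases at 3244 (Tus BRCA1del siFANCM, run A) matched 3240 to 3215 and so follow directly from the deposited position. With the 4 shared bases, that read may be a plain join at 3244 rather than a copy set before the prey. The insertions at 2722 (Tus BRCA1flox siLuciferase, run D) and 3070 (Tus BRCA1del siLuciferase, run B) were the same 12 bases. In 3 further members the copy ended at the edge of a Ter element and shared 23 bases, the length of a Ter element, with the start of the prey at 3070, 3098 or 3222. These reads go from the flank of a Ter element through its 23 bases into the flank of another.

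The 10 copies from outside the array included 7 within 100 bases of the joined position. In Tus BRCA1flox siFANCM, run B, the rightward join at 2941 held 19 bases of 2937 to 2919, the opposite strand of the DNA beside it. In Tus BRCA1del siLuciferase, run B, the rightward join at 1872 held 17 of its 29 bases from 1866 to 1850, likewise inverted. The longest leftward copy, 28 bases from 2943 to 2916, started at its own deposited position, 2943, right after the attached bait. The exact prey match was called after it, near the same position and in the same orientation. Copy and prey therefore cannot be told apart in that read.

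Few insertions recurred between libraries. The 157 retained insertions held 155 different sequences, and 2 of these occurred in 2 libraries each. One was the 12-base Ter copy given above. The other held 25 bases and occurred at 3127 in Tus BRCA1del siBRCA1, run B, and at 3181 in Tus BRCA1flox siLuciferase, run C, with different bait ends. Its bases belong to a stretch of 172 bases, walked out through the reads, whose longest exact match to bait or cassette was 10 bases. In all, 11 retained insertions from 8 libraries of 6 groups held 12 or more bases of that stretch, 7 in one orientation and 4 in the other. Of these, 7 were from Tus BRCA1flox, which gave most of the 157 retained insertions, 3 from Tus BRCA1del and 1 from I-SceI. The first 15 bases of the recurrent insertion were present in 97 reads of the series, 43 body and 54 polyA-region junctions, 5 of them with EV. The origin of the stretch was not assigned. Telomere-type repeats, sought as 11 or more bases of TTAGGG repeats on either strand in any frame, were present in 3 of 157 retained insertions, against 5 of 7435 whole reads of all other called body joins. The 3 stood at 3042, 3067 and 3266, in 3 groups.

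Members lay less often within the array than other body joins, a difference that did not hold in all settings. Of the 331, 32.3% lay left of the first Ter element, 53.2% within the array and 14.5% right of it, and for other body joins the values were 24.8%, 59.6% and 15.5%. A retained insertion of 28 bases (Tus BRCA1flox siLuciferase, run C) lay at position 1, the edge of the reference. Over the 21 Tus libraries, the share between the first and the last Ter element was 57.2% ± 20.4 (SD, n = 21) in members and 69.0% ± 5.15 in other body joins. The mean difference was -11.8 percentage points, with the lower value in members in 16 of 21 libraries (p = 0.00974, sign-flip permutation over libraries). It was -8.91 points for retained insertions (permutation p = 0.117), -5.33 points without run D (permutation p = 0.233), and -18.4 points without run C (permutation p = 0.00328). At a minimum of 20 bases it was -15.4 points (permutation p = 0.0524). The rightward share was 12.2% ± 16.2 in members and 14.7% ± 4.31 in other joins, a difference smaller than the spread (permutation p = 0.490).

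**Figure D3:**
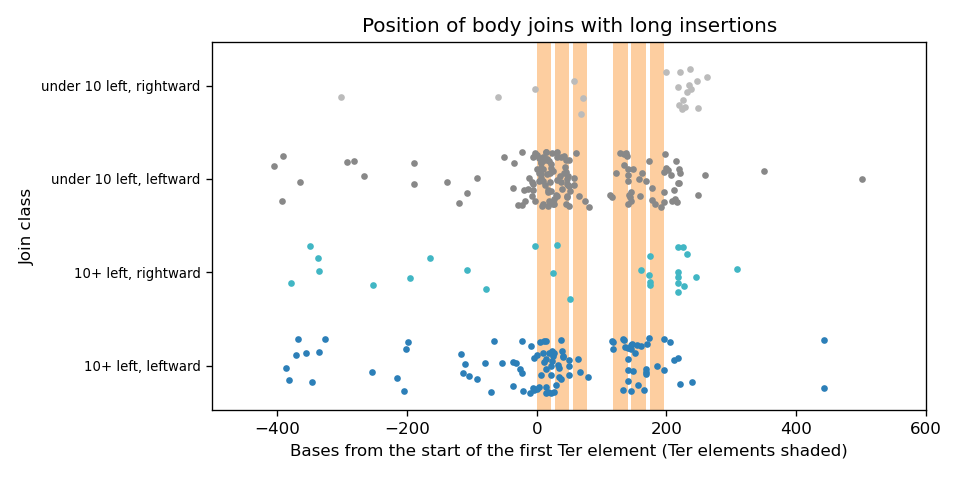
Position of the members relative to the first Ter element (x axis, bases; Ter elements shaded), split by orientation and by whether 10 or more bases were left after tolerant extension (y axis, join class; points are spread vertically for display). Points gather over the Ter elements, rightward points also beyond them, and 29 members farther left than the axis reaches are not drawn.

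The amount of bait lost is given as a description, because the end of the exact bait match also sets the insertion length. The median number of bait bases lost from the consensus end was 17.6 ± 7.75 (SD) in members and 10.05 ± 2.15 in other joins over the 21 Tus libraries. Pooled over all groups, retained insertions had lost a median of 10 bases, equal to that of other joins, and the members that ran on into bait or prey had lost 22. Within Tus libraries, the median loss of retained insertions was on average 5.93 bases above that of all other body joins, likewise a description.

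The share of body joins with long insertions was compared between genotypes. With siBLM the share was 9.07% in run C and 3.06% in run D for BRCA1flox, and 2.04%, 3.80% and 2.02% in runs B, C and D for BRCA1del. The lower BRCA1flox run lay within the BRCA1del range. With siLuciferase it was 7.89% and 2.78% in runs C and D for BRCA1flox, and 2.91%, 5.29% and 3.33% in runs B, C and D for BRCA1del, so the groups overlap. With siBRCA1 it was 5.98% and 3.73% in runs C and D for BRCA1flox, and 2.35%, 5.68% and 2.34% in runs B, C and D for BRCA1del. With siFANCM it was 3.84%, 2.99% and 2.76% in runs B, C and D for BRCA1flox, and 1.72%, 5.64% and 4.12% in runs A, C and D for BRCA1del.

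On pooled joins, BRCA1flox exceeded BRCA1del with siBLM by 4.40 percentage points (44 of 615 against 25 of 908, adjusted p = 0.000308, Fisher's exact test over 4 pairs) and with siLuciferase by 2.86 points (63 of 938 against 36 of 933, adjusted p = 0.014, Fisher's exact test). With siBRCA1 the difference of 1.66 points missed the 0.05 threshold (Fisher's exact test, adjusted p = 0.192), as did that of -0.159 points with siFANCM (Fisher's exact test, adjusted p = 0.894). Over runs no pair passed (exact permutation p = 0.20 for siBLM, 0.50 for siBRCA1, 0.60 for siFANCM and 0.70 for siLuciferase, where 0.10 is the smallest possible). Across siRNAs the common odds ratio was 1.66, the mean difference over runs was 1.42 points, and the exact permutation p was 0.146.

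Runs moved with these shares. The pooled share for Tus BRCA1flox was 6.94% in run C and 3.06% in run D, and that for Tus BRCA1del was 5.06% in run C, 2.98% in run D and 2.43% in run B. Both genotypes share only runs C and D within each siRNA. Within those 8 pairs BRCA1flox was higher in 5 and lower in 3, the mean difference was 0.752 points and the odds ratio was 1.29 (exact sign-flip permutation p = 0.453). Without run C the pooled siBLM difference was 1.02 points and that with siLuciferase was -0.258 points, and neither passed Fisher's exact test. Without run B, which holds BRCA1del but no BRCA1flox joins with siLuciferase, that difference was 2.10 points and missed the threshold. The minimum length moved these calls too. Counting insertions of 20 or more bases, the differences were 1.87 points with siBLM (Fisher's exact test, adjusted p = 0.0896) and 1.38 points with siLuciferase (adjusted p = 0.102), and neither passed. Counting those of 5 or more bases, siFANCM changed sign to 2.79 points and passed on pooled joins (Fisher's exact test, adjusted p = 0.0276), with an exact permutation p of 0.40 over runs.

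**Figure D4:**
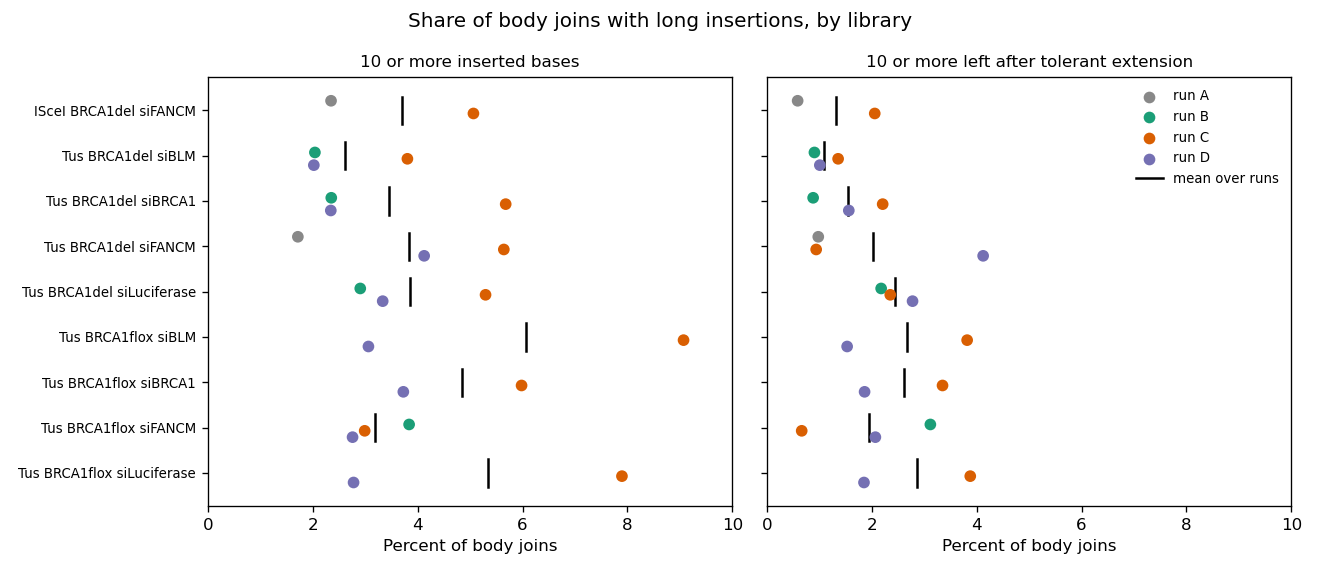
Percent of called body joins with 10 or more inserted bases (left) and with 10 or more bases left after tolerant extension (right), by group (y axis). Each point is 1 library coloured by sequencing run, and the black bar is the mean over runs; run C gives the highest point of the left panel in 8 of the 9 groups drawn, and EV is not drawn.

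**Figure D5:**
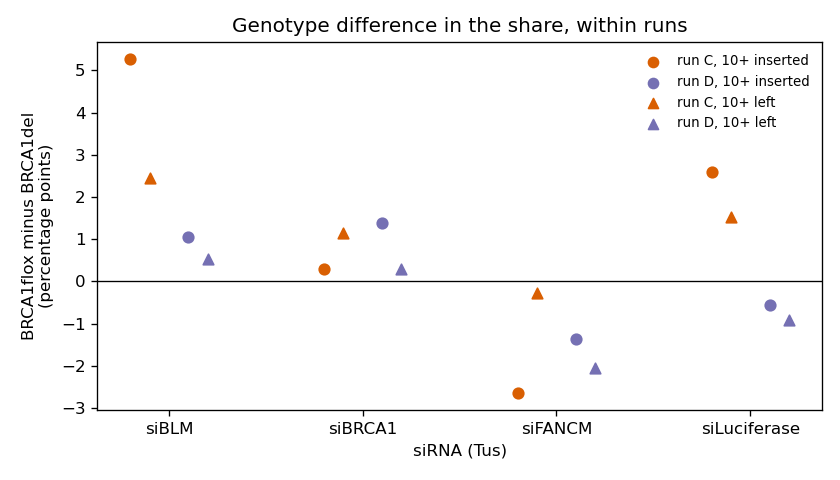
BRCA1flox minus BRCA1del in the share of body joins with long insertions (y axis, percentage points) within runs C and D, by siRNA (x axis). Circles count joins with 10 or more inserted bases and triangles those with 10 or more left after tolerant extension; siBLM and siBRCA1 points lie above 0 in both runs and siFANCM points below.

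Retained insertions made up at most 4.12% of called body joins in a library. With siBLM they were 3.09% of joins in BRCA1flox (19 of 615) and 1.10% in BRCA1del (10 of 908), which differ by 1.99 points (Fisher's exact test, adjusted p = 0.0276). The exact permutation p over runs was 0.10, the smallest possible. With siLuciferase they were 3.41% (32 of 938) and 2.36% (22 of 933), which differ by 1.05 points, short of the threshold (Fisher's exact test, adjusted p = 0.265). Over all siRNAs the odds ratio was 1.80 (exact permutation p = 0.121). In run C 41.7% of members were retained and in run A 36.8% (7 of 19), against 64.4% in run B and 67.6% in run D.

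I-SceI and Tus were compared in BRCA1del cells with siFANCM. With I-SceI the share was 2.35% in run A and 5.06% in run C. With Tus it was 1.72% in run A, 5.64% in run C and 4.12% in run D, so the groups overlap. The pooled difference was 0.33 percentage points (44 of 1143 against 29 of 824, p = 0.719, Fisher's exact test, and exact permutation p = 1.00 over runs). EV gave 1 member in 4 called body joins, with none retained. No comparison with EV was made at this depth. Orientation and position of members are set beside those of the other body joins of their group, with no test. Rightward joins were 22 of 44 members (50%) and 54.0% of the 1099 other body joins with I-SceI, and the median position was 3266 in both. With Tus they were 5 of 29 members (17.2%) and 14.8% of the 795 other body joins, with median positions of 3061 and 3076.

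Among siRNAs, 1 of 6 comparisons with siLuciferase passed on pooled joins. In BRCA1flox, siFANCM gave 3.36% (29 of 863), lower than siLuciferase at 6.72% (63 of 938) by 3.36 percentage points (adjusted p = 0.00746, Fisher's exact test over 6 comparisons, and exact permutation p = 0.30 over runs). Without run C the same difference was 0.781 points in the other direction, and for retained insertions it was -1.33 points (adjusted p = 0.316, Fisher's exact test). At a minimum of 20 bases it was -1.38 points and did not pass (Fisher's exact test, adjusted p = 0.291). At a minimum of 5 bases BRCA1flox siBRCA1 also passed, at -4.08 points (Fisher's exact test, adjusted p = 0.0405), with an exact permutation p of 1.00 over runs. In BRCA1flox the other differences were 0.438 points for siBLM and -1.36 points for siBRCA1. In BRCA1del they were -1.11 points for siBLM, -0.164 for siBRCA1 and -0.339 for siFANCM. All 3 comparisons within a genotype share the siLuciferase libraries.

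The median length of Tus members, given as a description, was 17 bases in BRCA1flox and 18 in BRCA1del. Matches of 12 or more bases to bait or cassette were present in 44 of 167 BRCA1flox members (26.3%) and 26 of 119 BRCA1del members (21.8%), with an exact permutation p of 0.293 over runs. In members that were not retained, such a match can be the attached bait or prey itself running on past a mismatch, not a copy. Among retained insertions the direction was the opposite, with 25 of 86 (29.1%) in BRCA1flox and 20 of 55 (36.4%) in BRCA1del (exact permutation p = 0.756). Neither difference passed the threshold. Retained copies of the bait were present in every Tus and I-SceI group other than Tus BRCA1del siBLM, which had 10 retained insertions.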

How the data were processed

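Junction tables were deposited by the authors, 1 per group, with the cassette position, strand, alignment coordinates and read sequence of each join. These are positions and sequences, not a measured level, and positions are counted from 1 on the cassette reference, not on a genome build. Per the submitters' processing notes, the aligner Bowtie2 and the build mm9 were used. Which filters the authors applied, and whether they removed duplicates, is not given in the sources used here. Here the bait was taken as the majority consensus after the 5-base barcode (50% of reads), and the cassette a majority vote of prey bases. Insertions lay between a 10-base bait seed and a 12-base prey seed, both extended. Repeated reads were kept: 76 body joins, and 0 members, repeat another of their library. Named joins are the longest insertion, the longest retained one and the longest copy of each origin, and others were chosen after their values were seen. Shares were tested by Fisher's exact test with Benjamini-Hochberg adjustment and by permutation over runs (exact, or 100000 resamples for the 21 Tus libraries). Members and lists were chosen with earlier results of these data known. Calls were checked on simulated data. Python 3.11.15, numpy 2.4.6, pandas 2.3.3, scipy 1.17.1, edlib 1.3.9.post1 and matplotlib 3.10.9 were used.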

Additional observations from a re-analysis of the deposited data

Results flagged for a closer look

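The genotype difference within the shared runs C and D took opposite signs between siRNAs. BRCA1flox minus BRCA1del averaged 3.15 percentage points with siBLM and 0.843 points with siBRCA1, positive in both runs for each, and -2.01 points with siFANCM, negative in both runs. The difference between siRNAs was not tested, and each average rests on 2 runs. No group holds 4 libraries, so single libraries were not checked as outliers.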

How the results depend on the processing

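The genotype odds ratio stayed above 1 under all alternatives run, from 1.38 to 1.88 with a run left out. With all listed junctions as denominator it was 1.83 (exact permutation p = 0.0407), the siFANCM genotype difference 0.0233 points and that of siBLM against siLuciferase in BRCA1flox -0.317. Within run C it was 1.35, within run D 1.04, and with run as a block 1.29, or 1.42 for retained insertions; these were chosen after seeing the data. With a minimum of 5 bases the siFANCM genotype difference turned to 2.79 points and passed, and in BRCA1flox siBLM and siBRCA1 differed from siLuciferase by -0.659 and -4.08 points, the latter now passing. With a minimum of 20 bases the calls for the genotype difference with siBLM (1.87 points) and siLuciferase (1.38) were lost, as was that for siFANCM in BRCA1flox (-1.38). There I-SceI minus Tus was -0.279, siBLM and siFANCM in BRCA1del 0.148 and 0.548, and members minus other joins 0.316 points in rightward share and -15.4 in array share, a lost call. For retained insertions the genotype difference was 0.751 points for siFANCM and 1.05 for siLuciferase, siBLM and siFANCM in BRCA1flox -0.322 and -1.33, the rightward share 2.91, the array share -8.91, bait loss 5.93 bases and the traced share -7.29 points. In shared runs alone the siLuciferase genotype difference was 2.10 and siFANCM in BRCA1del 0.673. With each run left out in turn, I-SceI minus Tus ranged from -0.225 to 0.411, the median length difference from -1.75 to 1.42 bases and the array share from -18.4 to -5.33. Genotype differences ranged from 1.02 to 6.23 points for siBLM, -1.93 to 1.38 for siFANCM and -0.258 to 3.91 for siLuciferase. Against siLuciferase, siBRCA1 and siFANCM ranged from -0.685 to 0.104 and -1.10 to 1.43 in BRCA1del, and from -1.91 to 0.949 and -4.41 to 0.781 in BRCA1flox. The causes were not tested. No paired analysis was possible because the tables carry no replicate numbers; pairing by sequencing run is the block given above. Libraries of 97 joins limit what a share can show, and the far left of the cassette reference is thinly covered by reads.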
